A study of Mus musculus with 40 samples.

Results

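Hearts of 40 male mice were examined for transcripts whose level followed the body weight of the animal within its own diet group. For each probe a slope on the later of the labelled body weights was fitted across all 40 of the 40 arrays in the series, with a mean of its own for each of the 4 groups, so that only weight differences between animals on the same diets entered. The slope is given as the change in log2 intensity per gram, heavier over lighter. The animals were male C57BL/6 mice by the labels, C57BL/6J and 9 weeks old by the study's methods, and each array held the total RNA of 1 heart.

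The 4 groups had 10 animals each, and in their names the dam's diet stands before the animal's own diet after weaning. HF_HF animals ate the high fat diet (HF) and came from dams fed the same diet. HF_LF animals ate the low fat, high carbohydrate diet (LF) and came from HF-fed dams. LF_HF animals ate the HF diet and came from LF-fed dams. LF_LF animals ate the LF diet and came from LF-fed dams. The animals of a group came from several cages and no group carried a genetic change. The labels call the later weight a weaning weight, but a separate weight at 3 weeks is also labelled, and the later values of 20.38 to 34.06 g are taken here as adult weights.

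As background, the heart draws most of its energy from the oxidation of fatty acids, and fatty acids entering the cardiomyocyte activate the nuclear receptor PPAR alpha, which raises genes of fatty acid import, storage and oxidation. A heavier body also asks for a larger heart, and growth or strain of the ventricle is known to raise natriuretic peptides and fetal isoforms of contractile proteins. Within an inbred group on 1 diet, the weight of an animal reflects body length and fat together.

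The weights left room for a slope in every group. The later weight averaged 30.5 ± 1.68 g in HF_HF, 23.7 ± 1.81 g in HF_LF, 30.3 ± 1.86 g in LF_HF and 24.7 ± 1.15 g in LF_LF (SD, n = 10 each). The pooled SD within groups was 1.65 g, while HF-fed animals were 6.21 g heavier than LF-fed animals. HF_HF animals ran from 28.44 to 34.06 g, and LF_LF animals from 23.38 to 26.83 g, the narrowest range. Cages, which hold brothers, carried 50.5% of the variation within groups over 17 sets of cage and diet. This share was not corrected for the number of sets. Sets of so few animals take up part of the variation even without any effect of cage. Whether cage affected weight was not tested.

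**Figure D1:**
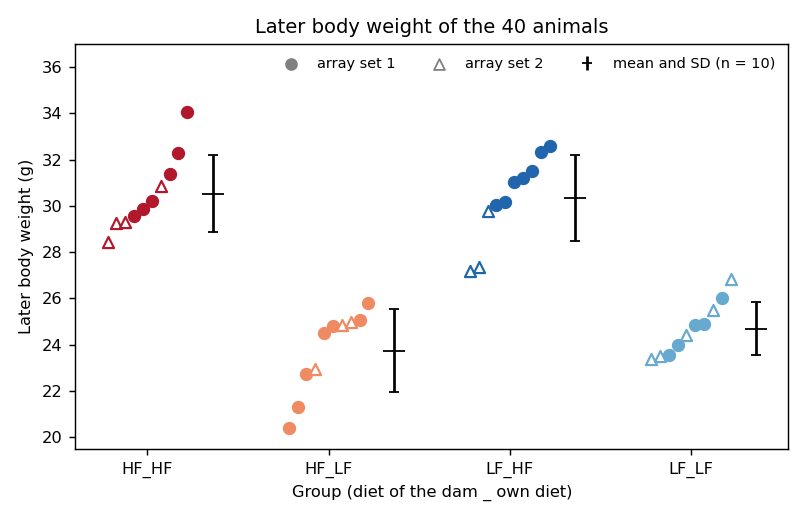
Later body weight in g (vertical axis) of each animal in the 4 groups (horizontal axis), with the mean and SD beside them (n = 10 per group). Filled circles are arrays of set 1 and open triangles arrays of set 2. HF-fed groups average 30.5 and 30.3 g, LF-fed groups 23.7 and 24.7 g, and in both HF-fed groups the open triangles lie mostly among the lighter animals.

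Heavier animals of a group had been heavier at 3 weeks and were longer. The later weight went with the 3-week weight (pooled within groups, Pearson r = 0.589, adjusted p = 0.00015; Spearman rho = 0.633, adjusted p = 9e-05; permutation within groups, n = 40). It went with body length in the 38 animals that had one (r = 0.767 and rho = 0.713, both with a permutation p of 1e-05, the smallest the resamples can give, and adjusted p = 3e-05). Fasting glucose was not shown to follow it (r = 0.286, adjusted permutation p = 0.0797; rho = 0.181, adjusted p = 0.282, n = 40). The permutation took no account of cage, so animals of a cage counted as independent and its p-values may be too small. These 3 relations were adjusted together, and r was 0.602, 0.747 and 0.181 in that order without the 2 animals farthest from their group's median weight. Within the larger set of 25 arrays described next r was 0.576, 0.732 and 0.261, and within the smaller one of 15 it was 0.493, 0.746 and 0.427, where none of the adjusted permutation p-values passed (0.167, 0.0733 and 0.175).

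Properties of the arrays bear on what follows. The dimmest probes divided the arrays into 2 sets of 25 and 15, in a pattern that the labels do not name. Heavier HF-fed animals were more often in the first set: weight minus the group mean averaged 0.837 g over its 13 HF-fed animals and -1.55 g over the 7 HF-fed animals of the second set. In LF-fed animals these means were -0.146 g (12 animals) and 0.219 g (8 animals). The sets differed at 2273 of 12645 probes (18%) in limma at a false discovery rate of 5%. The mean level of marker genes of skeletal muscle, exocrine pancreas or liver stood above a limit of 1.5 log2 units over the median heart in 11 hearts, and counts without these hearts are given for the weight slopes but were not computed for body length. Marker genes of atrial muscle also varied widely, with scores between -1.57 and 1.01. In such bulk samples fewer cells of a type and less RNA per cell cannot be told apart.

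Across all 40 animals no transcript followed weight beyond the spread between animals. Of 12645 probes tested with limma, 0 passed at a false discovery rate of 5% (0%), and the smallest adjusted p was 0.784. At an unadjusted p under 0.05 there were 791 probes (6.26%), 402 with a positive and 389 with a negative slope. With the array set as a further term the number was 302 (2.39%), and without the 11 hearts that carried other markers it was 1112. The count at the false discovery rate was 0 under all 71 alternatives run, and the closest approach was an adjusted p of 0.0691 with arrays weighted by their quality.

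The intervals of the slopes give the bounds that these data allow, in the fit without the array set. The 95% interval of the slope had a median half-width of 0.0269 log2 per g, and between the 10th and the 90th percentile of probes it was 0.0201 to 0.0469. For 12083 probes (95.6%) the whole interval lay within 0.1 log2 per g of 0. That limit is about as large as the diet differences per gram given below for Acot1 and Pdk4, so it is not a tight one. The median absolute slope was 0.01. A change of that size over the pooled SD of weight is smaller than the median half-width of 0.0443 log2 for 1 SD.

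**Figure D2:**
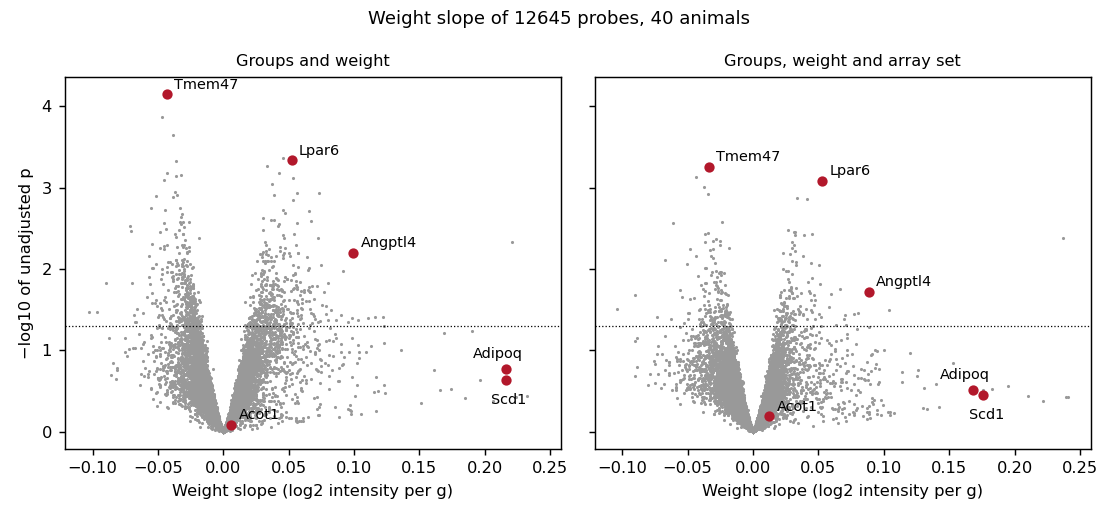
Fitted weight slope (horizontal axis, log2 intensity per g) against −log10 of the unadjusted p (vertical axis) for 12645 probes in 40 animals, with groups alone on the left and with the array set as a further term on the right. Named genes are red and the dotted line marks an unadjusted p of 0.05. Scd1 and Adipoq had slopes of 0.216 but low significance, while Tmem47 had the smallest p at a slope of -0.0431, and 0 probes passed at a false discovery rate of 5% in either panel.

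The probe with the smallest p belonged to Tmem47, a membrane protein of cell junctions, with a slope of -0.0431 ± 0.0097 log2 per g (SE, n = 40, limma p = 7.12e-05, adjusted p = 0.784). In HF_HF its intensity was 108 to 120 (median 115) in the 5 heavier animals and 116 to 141 (median 121) in the 5 lighter ones. In LF_HF it was 104 to 117 (median 110) in the heavier and 109 to 135 (median 123) in the lighter animals. In HF_LF the heavier animals had 114 to 135 (median 126) and the lighter 120 to 137 (median 125). Heavier and lighter animals overlapped in each of these groups and in LF_LF, where they had 111 to 131 and 104 to 134. Another probe of Tmem47 had a slope of -0.0258.

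Lpar6, a receptor for lysophosphatidic acid, had the smallest p of the positive slopes at probes with a gene symbol, at 0.0524 ± 0.0137 log2 per g (SE, limma p = 0.000464, adjusted p = 0.784). Its intensity was 388 to 473 (median 416) in the heavier HF_HF animals and 366 to 409 (median 383) in the lighter ones. In HF_LF it was 332 to 460 (median 414) in the heavier and 301 to 414 (median 346) in the lighter animals. In LF_HF the heavier animals had 343 to 411 (median 352) and the lighter 333 to 380 (median 357), so that their medians nearly met there. In LF_LF the heavier animals had 373 to 487 (median 422) and the lighter 328 to 459 (median 341). Heavier and lighter animals overlapped in all 4 groups, although the heavier ones had the higher mean in 4 of 4.

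The other probes with the smallest p in each direction were mostly dim. Falling slopes came from Nmnat3, which makes NAD in mitochondria, Papola, a poly(A) polymerase, Med1, a subunit of Mediator, Actr5, a subunit of the INO80 remodeler, Rapsn, which clusters acetylcholine receptors in muscle, Mettl25 and Pcdhb22. Rising slopes came from Ncapd2, a condensin subunit, Gimap1, a GTPase of lymphocytes, Pipox, a peroxisomal oxidase, Pfn4, Sprr1a, Cnnm2 and Fam222a. All had an adjusted p of 0.784. Where a gene had more than 1 probe the probes did not always share a sign: the Nmnat3 probe had -0.0465 log2 per g and the second probe 0.0438, and for Med1 the values were -0.0363 for the named probe and -0.0173 and 0.0288 for the others. Ncapd2 had 0.00077 at its second probe.

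**Figure D3:**
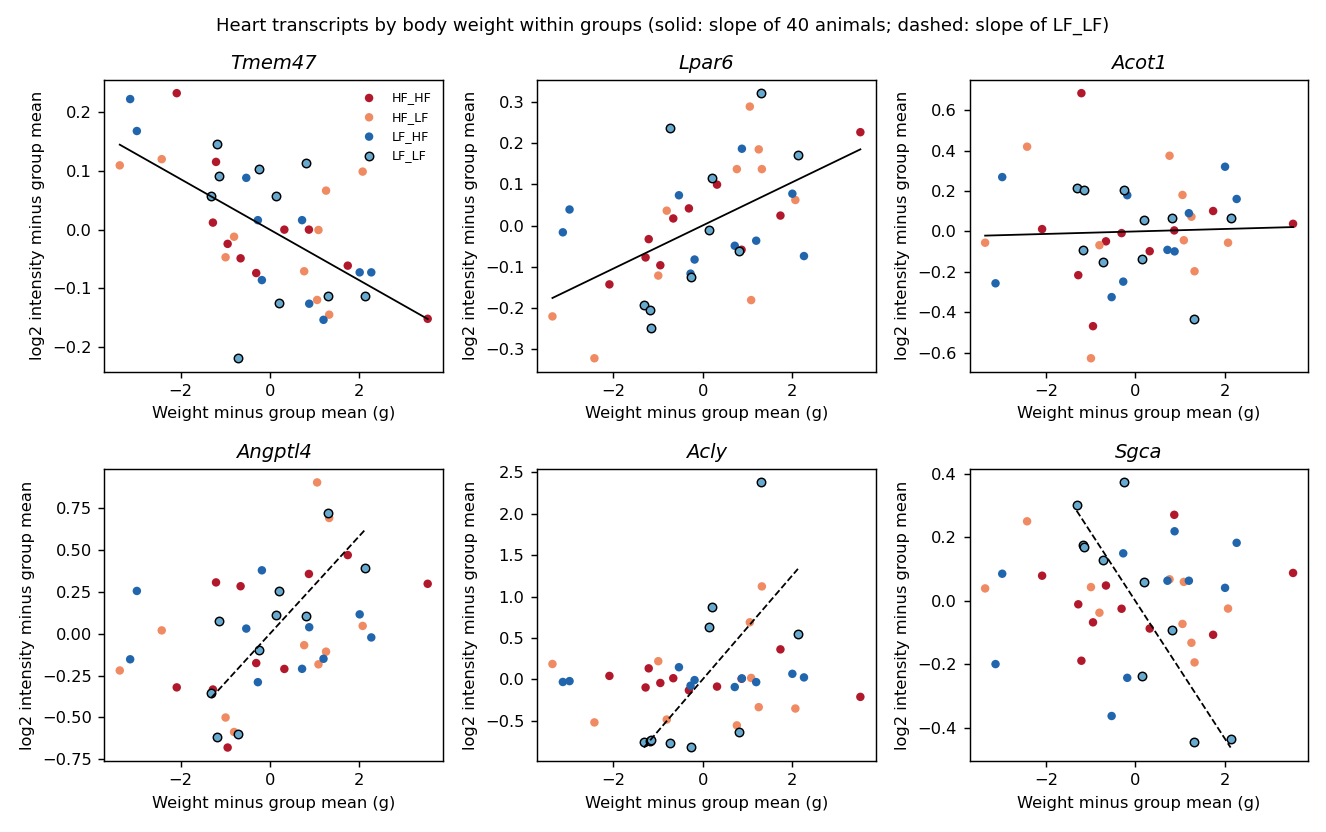
log2 intensity minus its group mean (vertical axis) against weight in g minus its group mean (horizontal axis) for 6 genes in 40 animals, coloured by group, with LF_LF outlined. Solid lines are the slopes fitted over 40 animals (Tmem47 -0.0431, Lpar6 0.0524, Acot1 0.00613) and dashed lines those of LF_LF (Angptl4 0.292, Acly 0.625, Sgca -0.216). For Acly the LF_LF points alone spread along the line, with a heart of 26 g far above the others.

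Own diet and weight within groups were compared for genes known to respond to diet. Acot1, a cytosolic thioesterase that splits acyl-CoA and is a PPAR alpha target, was 0.742 ± 0.0789 log2 higher in HF-fed than in LF-fed hearts (SE, averaged over dams), which spread over the weight difference between the diets would be 0.119 log2 per g. Its slope within groups was 0.00613 log2 per g, with a 95% interval of -0.0456 to 0.0578. In HF_HF its intensity was 2030 to 2330 (median 2180) in heavier and 1570 to 3490 (median 2100) in lighter animals. In LF_LF it was 971 to 1370 (median 1360) in heavier and 1180 to 1520 (median 1510) in lighter animals. Heavier and lighter animals overlapped in both groups, while each HF_HF heart exceeded the LF_LF range. Those 2 groups also differ in the dam's diet. With HF-fed dams the own diets overlapped, as HF_LF hearts reached 1640 and HF_HF hearts began at 1570. With LF-fed dams they did not, as LF_HF hearts began at 1650.

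Pdk4, the kinase that shuts the pyruvate dehydrogenase complex when fat is burned, had values of the same kind: 0.611 log2 higher with HF feeding, or 0.0983 log2 per g, against a slope within groups of 0.0159 log2 per g (interval -0.0385 to 0.0702). For Fkbp5, a co-chaperone induced by glucocorticoids, the own-diet difference was -0.405 log2, or -0.0652 log2 per g, and the slope 0.00562 log2 per g (interval -0.0525 to 0.0637). In these 3 genes the interval of the slope did not contain the value that the diet difference would give per gram. That value has an SE of its own, which was not counted here. The fit with own diet and weight together is given below. For Nppb, the B-type natriuretic peptide released by a strained ventricle, the interval contained the value. The diet difference was 0.0978 log2 per g and the slope 0.00219 (interval -0.0968 to 0.101). So did the intervals of some other genes that differ by diet, such as Angptl4, described below. Plin5, which coats lipid droplets next to mitochondria, had a slope of 0.0043 log2 per g, and Ucp3, a mitochondrial carrier raised by fatty acids, 0.0148, both with intervals that include 0.

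Over all probes, own diet passed at 947 (7.49%), and 3 of them still passed once weight was a term in the same fit. The median SE of the own-diet difference was 0.0925 log2 with the weight term and 0.0416 without it, since the diets differ in weight by more than most animals within a group. For Acot1 the difference with the weight term was 0.704 ± 0.178 log2 (SE, limma adjusted p = 0.124). Of the 947 probes, 923 kept the sign of the difference with the weight term. The slope within groups had the sign of the diet difference at 377 of the 947 (39.8%), and 22 slopes of the same sign and 19 of the opposite sign had an unadjusted p under 0.05 (4.33% together). Some genes had values of the same sign on both: Ciart, a clock gene, was -0.7 log2 with HF feeding with a slope of -0.068 log2 per g, and Tcap, a protein of the sarcomere's Z-disc, was -0.438 log2 with a slope of -0.0474.

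Angptl4, an inhibitor of lipoprotein lipase and a PPAR target, had the smallest p among the metabolic and contractile genes described whatever their result. Its slope was 0.0994 ± 0.0344 log2 per g (SE, limma p = 0.00631, adjusted p = 0.784; interval 0.0298 to 0.169). Its intensity was 502 to 769 (median 557) in heavier LF_LF animals and 304 to 492 (median 364) in lighter ones, which did not overlap. In HF_HF it was 489 to 784 (median 696) in heavier and 353 to 700 (median 453) in lighter animals. In HF_LF the heavier animals had 278 to 591 (median 326) and the lighter 210 to 320 (median 271), and in LF_HF the heavier had 446 to 559 (median 508) and the lighter 422 to 671 (median 527). The order was thus absent in LF_HF. Its slope with the array set as a term was 0.0885. Angptl4 was also 0.495 log2 higher in HF-fed than in LF-fed hearts (averaged over dams, limma adjusted p = 0.00597). Spread over the weight difference between the diets, that value lies within the interval of the slope.

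Genes of cardiac load had no slope that passed. Nppa, the atrial natriuretic peptide, had 0.115 ± 0.115 log2 per g (SE). Myh7, the slow myosin heavy chain of the fetal programme, had -0.0133, with an interval of -0.0555 to 0.0289. Igf1, a growth factor of the heart and body, had 0.0533, with an interval of -0.0186 to 0.125. Scd1, the desaturase that makes oleate, and Adipoq, the adipocyte hormone, had the steepest of these slopes at 0.216 log2 per g each, with SEs of 0.179 and 0.154.

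The 50 lists of pathways and cell types, with 658 tested genes in all, held 0 genes that passed. At an unadjusted p under 0.05, 13 of the 658 had a positive slope and 12 a negative one, while over all 8749 genes, with 1 probe each, 295 (3.37%) were positive and 230 (2.63%) negative. The list medians lay between -0.0169 and 0.103 log2 per g, and 43 of 50 within 0.03 of 0. The 21 genes of fatty acid oxidation had a median of -0.00256, and 0 of them had an unadjusted p under 0.05 in either direction. The 40 genes of the respiratory chain had a median of -0.00201, also with 0 in either direction, and 15 genes of the hypertrophy and fetal programme one of 0.00219.

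The highest list medians came from the markers of adipocytes (0.103), exocrine pancreas (0.101, 4 of 4 genes positive), lymphocytes (0.0589, 7 of 7) and liver (0.0567, 16 of 16). Over all 8749 genes 4049 slopes were positive. The liver median was -0.0586 with 1 of 16 positive in HF-fed animals alone, and 0.189 with 16 of 16 in LF-fed animals alone. Adipocyte markers were positive for 4 of 6 genes in HF-fed and 6 of 6 in LF-fed animals. The pancreas and lymphocyte markers were all positive in either diet. Pancreas and liver are among the tissues whose markers set some hearts apart. All 10 tested genes of fatty acid synthesis had a positive slope, with a median of 0.0489 log2 per g, and 1 of the 10, Thrsp, a lipogenic regulator in liver and fat, had an unadjusted p under 0.05 (slope 0.122, limma p = 0.0388). In HF-fed animals alone the median of this list was -0.00593 with 5 of 10 positive, and in LF-fed animals alone 0.127 with 10 of 10. The 17 genes of lipid droplets and triglyceride turnover had a median of 0.0271, with 2 at an unadjusted p under 0.05: G0s2, which inhibits the lipase that starts triglyceride breakdown (slope 0.0554, limma p = 0.0051), and Dgat1, which makes triglyceride (0.0371, p = 0.0204). All 6 tested adipocyte markers, Adipoq, Car3, Cidec, Lipe, Pparg and Slc36a2, were positive. Among 14 clock genes 3 had negative slopes at that level: Per1 (-0.0716, limma p = 0.00298), Ciart (-0.068) and Cry2 (-0.0263), and 1 of the 14 with the array set as a term. Other clock genes had -0.00536 (Per2), 0.0104 (Per3) and -0.00815 (Nr1d1), and the median of the 14 was -0.00676.

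The slope was next allowed to differ between groups, each with a slope of its own in a single limma fit of the 40 arrays, a comparison added after the data had been examined. At a false discovery rate of 5%, 0 probes passed in HF_HF, 0 in HF_LF and 0 in LF_HF (938, 278 and 1177 at an unadjusted p under 0.05), and 117 passed in LF_LF (0.925%; 85 rose and 32 fell with weight). The smallest adjusted p in LF_LF was 0.0153. The slope in LF_LF differed from the mean slope of the other 3 groups at 120 probes (0.949%), 85 of them among the 117. The absolute slopes of the 117 lay between 0.104 and 1.23 log2 per g with a median of 0.233.

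Genes that make fatty acids and sterols were among those that rose with weight in LF_LF, and the genes of this comparison are named after their values were seen. Of 10 tested genes of fatty acid synthesis 4 passed: Acly, Acaca, Elovl5 and Fads1, against 97 of 8749 genes over all (1.11%). Acly, which makes cytosolic acetyl-CoA from citrate, had intensities of 2090, 2460, 867, 6990 and 1970 in the heavier LF_LF animals, from 24.84 to 26.83 g. It had 797, 804, 813, 788 and 767 in the lighter ones, from 23.38 to 24.44 g. The heavier and lighter hearts did not overlap, and 1 of the 5 heavier hearts lay close to the lighter ones. Heavier and lighter LF_LF animals did not overlap at 505 of all tested probes (3.99%), and at 58 of the 117 that passed. These probes were picked by their slope in the same animals, so a lack of overlap is no separate support for them. Its slope was 0.625 ± 0.143 log2 per g (SE, limma adjusted p = 0.0348).

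Acaca, the first committed enzyme of fatty acid synthesis, had 234 to 3060 (median 847) in heavier and 184 to 218 (median 192) in lighter LF_LF animals (slope 0.887 ± 0.227, SE, limma adjusted p = 0.0478). Fads1, a desaturase of polyunsaturated fatty acids, had 686 to 1950 (median 820) in heavier and 587 to 673 (median 606) in lighter animals (slope 0.362 ± 0.0682, adjusted p = 0.0153), again without overlap. The value of 1950 (next 892) came from the heaviest heart, which had a liver score of 3.925. Elovl5, an elongase of the same pathway, had a slope of 0.297 ± 0.0605 (adjusted p = 0.0228), with 1020 to 2260 in heavier and 955 to 1160 in lighter animals, which overlapped. Slc25a1, which exports citrate from mitochondria, and Sqle, an enzyme of sterol synthesis, rose by 0.675 and 0.278 log2 per g (adjusted p = 0.0478 and 0.0153). Sqle was dim, at 84.2 to 156 in heavier and 73.9 to 78.1 in lighter animals. In LF_HF a heart with a liver score of 3.731 stood far above the others for Fads1, Elovl5 and Sqle. The part of liver markers in these slopes was not tested. Scd1 itself did not pass (slope 1.7 ± 0.455, adjusted p = 0.0564), although its intensities of 1140 to 20400 in heavier and 165 to 867 in lighter LF_LF animals did not overlap.

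At an unadjusted p under 0.05, 8 of the 10 genes of fatty acid synthesis and 6 of 12 of cholesterol synthesis had positive slopes in LF_LF, and 0 of either negative ones, against 8.78% positive and 10.8% negative over the 8749 genes. The medians were 0.329 and 0.117 log2 per g, and that of all genes was -0.0158. Among the steepest others that rose were Cdo1, which breaks down cysteine (slope 1.23), Pygl, a glycogen phosphorylase (0.882), Csrp2, a LIM protein of smooth muscle (0.647), Col18a1, a basement membrane collagen (0.571), Smoc1, a matrix protein (0.542), and Myl1, a myosin light chain (0.506). Csrp2 had 847 to 1750 (median 1390) in heavier and 398 to 543 (median 426) in lighter LF_LF animals.

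The 32 probes that fell with weight in LF_LF had genes of several kinds. Sgca, a sarcoglycan that anchors the muscle membrane, had 252 to 357 (median 291) in heavier and 375 to 444 (median 387) in lighter LF_LF animals, without overlap (slope -0.216 ± 0.0427, SE, limma adjusted p = 0.0179). Abcc9, a subunit of the ATP-sensitive potassium channel, fell by 0.222 log2 per g (adjusted p = 0.0228), and Ddit4, a stress-induced inhibitor of mTOR, by 0.421 (adjusted p = 0.0478). Abcc9 was on the list of smooth muscle and pericyte genes, where the other 3 that passed, Acta2, Lmod1 and Myh11, rose. Tmem223 had the steepest fall at -0.445. In the respiratory chain 1 of 40 genes passed, Ndufb3, and 12 of 40 had a negative slope at an unadjusted p under 0.05, with 0 positive. In glycolysis and glucose uptake 7 of 16 were negative and 0 positive, against the 10.8% of all genes that were negative at that level. The 3 of 21 negative genes of fatty acid oxidation are a share near that of all genes.

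Markers of other cells also differed between heavier and lighter LF_LF hearts. Adipoq was at 1480, 708, 204, 2550 and 782 in the heavier LF_LF hearts and at 86.8, 110, 81.4, 92.3 and 73.9 in the lighter ones. The adipocyte and atrial scores were taken over all probes of their lists of 13 and 15 genes, untested dim probes included. The adipocyte score was 0.14 to 1.30 in the heavier and -0.16 to -0.03 in the lighter LF_LF hearts. The atrial score, with members such as Myl7 and Nppa, was -0.93 to 0.88 in the heavier and -1.57 to -1.14 in the lighter LF_LF hearts. Myl7, the atrial myosin light chain, had 513 to 18500 (median 11100) in heavier and 86 to 245 (median 170) in lighter LF_LF hearts. Nppa had 6160 to 30500 (median 28500) in heavier and 2970 to 4560 (median 3880) in lighter ones. Neither score separated heavier from lighter animals in HF_HF, HF_LF or LF_HF, where the ranges overlapped.

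Fibroblast markers had positive slopes in LF_LF at an unadjusted p under 0.05 for 12 of 16 genes, collagen and matrix genes for 12 of 20 and markers of epicardium and mesothelium for 6 of 8, with 0 negative in each list. Over all 8749 genes 8.78% were positive at that level. Macrophage markers had 0 of 13 in either direction. All 16 tested liver markers had positive slopes in LF_LF (median 0.71 log2 per g), 5 of the 16 at that level. The liver score overlapped, at -0.44 to 3.92 in heavier and -1.04 to 1.51 in lighter LF_LF hearts, and was not used as a term. The smooth muscle and pericyte score did not overlap there, at 0.05 to 0.25 in heavier and -0.15 to -0.01 in lighter hearts. The fibroblast score was 0.06 to 0.52 in heavier and -0.37 to -0.11 in lighter LF_LF hearts. In HF_HF it was ordered the other way without overlap, at -0.33 to 0.03 in heavier and 0.08 to 0.33 in lighter hearts. In HF_LF and LF_HF its ranges overlapped. With the adipocyte score as a term 0 of the 12645 probes passed in LF_LF (742 at an unadjusted p under 0.05), and with the atrial score 0 passed (645). The 117 slopes had a median size of 0.162 log2 per g with the adipocyte term and 0.14 with the atrial term, and all 117 kept their sign with the adipocyte term. Acly had 0.297 log2 per g with the adipocyte term and 0.39 with the atrial term, and Col18a1 0.442 and 0.424.

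**Figure D4:**
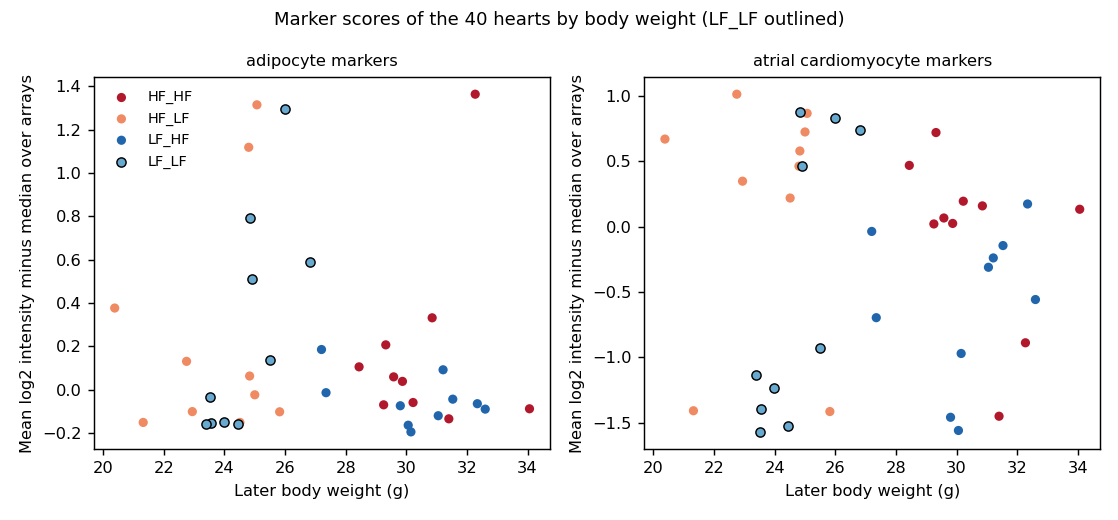
Scores of adipocyte markers (left) and atrial cardiomyocyte markers (right) in the 40 hearts, as mean log2 intensity minus the median over arrays (vertical axis), against later body weight in g (horizontal axis). Points are coloured by group, with LF_LF outlined. In LF_LF the adipocyte score is 0.14 to 1.30 in the 5 heavier animals and -0.16 to -0.03 in the 5 lighter ones, and the atrial score -0.93 to 0.88 and -1.57 to -1.14.

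The LF_LF count rested on few animals. Without the heaviest animal, which weighed 26.83 g and also carried liver markers, 0 probes passed, and without that of 25.51 g, 607 did. Without any 1 of 9 of the 10 animals the count moved by more than 1.5 times, with values for each in the closing section. Without all 11 hearts above the limit for another tissue 0 passed (1798 at an unadjusted p under 0.05). With the array set as a term 158 passed, all 117 among them. The 3 animals of a cage were all among the 5 lighter ones and both animals of another cage among the 5 heavier ones, so that cage and weight are partly confounded.

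In the 20 HF-fed animals taken by themselves 426 probes passed (3.37%), 344 rising and 82 falling, but the number was 0 with the array set as a term (973 at an unadjusted p under 0.05, 7.69%) and 517 without the hearts that carried markers of another tissue. The 426 were dim, with a median intensity of 88.2 against 175 over all tested probes, and 308 of them (72.3%) lay under 100, as did 23% of the tested probes. Of the 426, 382 (89.7%) also differed between the array sets, and in all 426 the slope had the opposite sign to the difference of set 2 minus set 1. The set difference was fitted without a weight term. Since the HF-fed animals of set 2 were also lighter for their group, these counts do not tell array set from weight. Cdkn2a, a cell cycle inhibitor, had the smallest p, with a slope of 0.123 log2 per g, and 0.0629 with the array set as a term, at an intensity of 81.5. Within set 1, 123 probes passed, 11 rising and 112 falling, of which 9 were among the 426, and within set 2 0 passed.

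**Figure D5:**
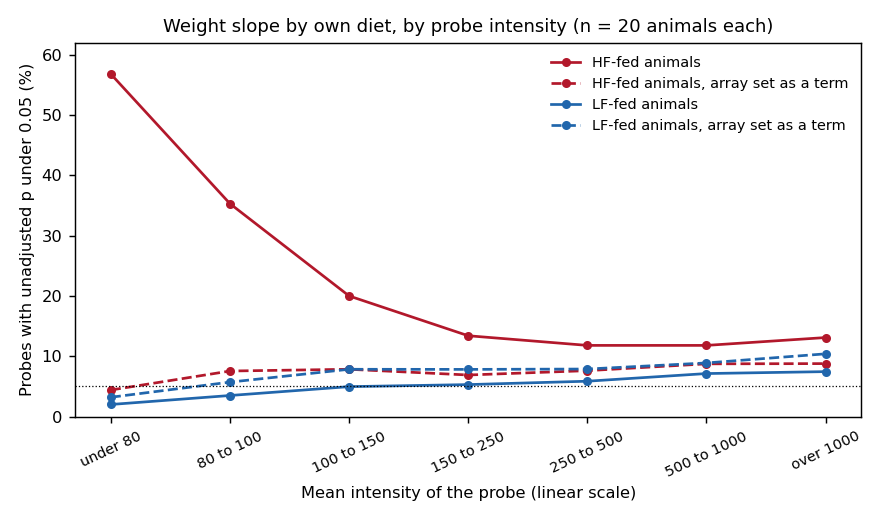
Share of probes with an unadjusted p under 0.05 (vertical axis, %) in classes of mean probe intensity (horizontal axis), for the weight slope in 20 HF-fed animals (red) and 20 LF-fed animals (blue), without (solid) and with (dashed) the array set as a term. The dotted line marks 5%. In HF-fed animals the share is 56.8% for probes under 80 and 13.1% for probes over 1000, and with the array set as a term 4.4% and 8.78%.

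In the 20 LF-fed animals 0 probes passed, with 670 at an unadjusted p under 0.05 (5.3%), and the smallest adjusted p was 0.853. The 670 were 319 without the hearts that carried markers of another tissue, and with 1 animal left out they were 425 without LF_LF animal 133, 442 without HF_LF animal 228, 1167 without HF_LF animal 127 and 1339 without HF_LF animal 227. The difference in slope between HF-fed and LF-fed animals was tested in the fit of 40 arrays and passed at 0 probes, although 2360 had an unadjusted p under 0.05 (18.7%) and the smallest adjusted p was 0.117. The 2360 were 1511 with the array set as a term of its own in each diet and 1541 without the hearts that carried markers of another tissue. The smallest p-values belonged to Sap30bp, Pacs1, Zfp317 and Kdm8. Pacs1, a sorting protein of the secretory pathway, had slopes of 0.0567 log2 per g in HF-fed and -0.076 in LF-fed animals. The difference in slope between offspring of HF-fed and of LF-fed dams also passed at 0 probes (564 at an unadjusted p under 0.05, 4.46%), with Fam3c, Adamtsl2, Sphk1 and Pgm5 first.

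Body length in place of weight gave the same count of 0 in the 38 animals with a length (584 at an unadjusted p under 0.05, 4.62%). Mef2a, a transcription factor of muscle, Fam222a, Pde4dip, an anchoring protein of the sarcomere and centrosome, and Pigk had the smallest p-values. Weight at a given length, with both as terms, passed at 0 probes, with 797 at an unadjusted p under 0.05 and a smallest adjusted p of 0.464.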

How the data were processed

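The deposited table held fluorescence intensity on a linear scale for 25697 probes of Illumina MouseRef-8 v2.0 beadchips, 1 array for each of 40 hearts. The authors obtained these values in BeadStudio, whose version is not stated in the paper or the labels, and quantile-normalised them without subtracting background. Sorted columns of the table matched to within 1 unit. Intensities ran from 47.5 to 31454.1, and the number of arrays limits the precision.

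Values were taken to log2. Testing was limited to probes brighter than the array's median on 20 arrays or more, 12645 probes in all, 11929 with a symbol for 8749 genes. Symbols came from the probe annotation and the mouse gene table. For a gene with several probes the brightest stood for it in the lists. Slopes were fitted in limma 3.58.1 (R 4.3.3, variance trend), with Benjamini-Hochberg adjustment over all tested probes. Size measures were compared by two-sided permutation within groups with 100000 resamples (Python 3.11.15, NumPy 2.4.6, SciPy 1.17.1), and plots were drawn in matplotlib 3.10.9. The fit of 1 weight slope shared by the groups was tested on simulated data. Fits with a slope for each group, with interactions or of own diet with weight were not.

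Heavier and lighter animals are the 5 heaviest and the 5 lightest of a group. A marker score is the mean over all of a list's probes, untested dim ones included, of log2 intensity minus the probe's median over arrays. The 2 array sets are those on either side of the largest gap on the first principal component of the probes that were not tested (16.4% of their variance). Sets were not labelled.

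Genes were named by rule: the 8 smallest p-values in each direction, the 4 smallest for each interaction and for length, up to 3 members of a list by p, and Pdk4, Acot1, Ucp3, Angptl4, Plin5, Scd1, Adipoq, Nppa, Nppb, Myh7, Igf1 and Fkbp5 whatever their result. Genes named for LF_LF and for HF-fed animals alone were chosen after their values were seen. The members and the 50 lists were chosen with earlier results of these data known. The alternatives were the filter, the variance model, array quality weights, array set, cage, hearts with markers of another tissue, marker scores, covariates, the scale of weight and single animals or cages left out.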

Additional observations from a re-analysis of the deposited data

Results flagged for a closer look

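Of 244 sets of 8 or 10 values (57 probes and 4 size measures in 4 groups), 27 (11.1%) held an animal far from the others of its group. Chance alone gives about 1 in 20, and sets of related genes share their animals. The intensity of that animal is given, with the next one beside it.

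Of the HF_HF sets, 8 were set by a single animal of 32.27 g with an adipocyte score of 1.363: Scd1 at 12400 (next 1630), Adipoq at 3470 (330), Car3 at 3000 (503), Cdo1 at 1520 (264), Acaca at 526 (209), Pygl at 363 (203), Slc25a1 at 221 (135) and Dgat1 at 127 (103). Other HF_HF animals held Acot1 at 3490 (next 2330), Cry2 at 203 (181) and Ucp3, which was lowest at 188 (next 272). In LF_HF, 6 sets came from a heart of 29.8 g with a liver score of 3.731: Fads1 at 1340 (next 807), Elovl5 at 1560 (1190), Sqle at 148 (95.3), Cdo1 at 696 (258), Pygl at 461 (206) and Igf1 at 278 (172). The others in LF_HF were H2-Eb1, an antigen-presenting molecule, at 1260 (747) and Myl1 at 6220 (4550). An HF_LF heart with an adipocyte score of 1.314 held Cnnm2 at 163 (140) and G0s2 at 634 (505).

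In LF_LF, the heart of 26 g with an adipocyte score of 1.296 held Acly at 6990 (next 2460), Thrsp at 1200 (438), Cnnm2 at 172 (145) and Dgat1 at 148 (123). The heart of 26.83 g with a liver score of 3.925 held Fads1 at 1950 (892) and Igf1 at 407 (192).

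The weight slope in LF_LF differed from the mean slope of the other groups at 120 probes in limma at a false discovery rate of 5%. The part of the marker scores in this difference was not tested.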

How the results depend on the processing

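The slope over 40 animals passed at 0 probes under all 71 alternatives, with 301 to 2202 probes at an unadjusted p under 0.05. With 1 animal left out that number was 536 to 1052 and the smallest adjusted p 0.114. Counts for maternal diet, length and weight with length stayed at 0 under each alternative run for them. No paired analysis was possible because animal numbers are unique and tie no single animal of one group to another. Cage numbers do recur across own diets (4 and 11 for LF-fed dams, 10, 20 and 23 for HF-fed dams), and cage was a random block in the alternatives. Detection values were not used here, so dim probes are the least certain.

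Alternatives in this paragraph for HF-fed and LF_LF animals were mostly chosen after seeing the data. The difference by own diet passed at 1 probe with all probes tested (Lag3, adjusted p = 0.0466, intensity 72.3). The HF-fed count of 426 was 1132 with all probes tested, 0 with probes above the median on all arrays, 0 with the array set as a term, 140 without the 2 animals farthest from their group's median weight, 123 within set 1 and 0 within set 2. With 1 animal left out it was 0 to 1258, and 11 of the 20 animals moved it by over 1.5 times: 74, 225, 246, 0 and 181 without LF_HF animals 23, 97, 99, 199 and 209, and 198, 1258, 263, 140, 207 and 272 without HF_HF animals 52, 124, 172, 174, 181 and 183. The LF_LF count of 117 was 40 with all probes tested, 5 on the 10 LF_LF animals alone, and 0 without hearts above the limit for another tissue, with the adipocyte score, with the atrial score or with both. It was 0 to 607 with 1 animal left out: 23, 70, 19, 47, 0, 14, 4, 42 and 607 without animals 13, 14, 15, 100, 101, 102, 133, 210 and 211. The difference of LF_LF from the other groups was 219 with the array set as a term. The cause was not tested. Within set 2, r of the later weight with 3-week weight (0.493) and length (0.746) no longer passed, with fewer animals.

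For 40 named genes, 2815 of 2900 alternative values kept their direction and side of the threshold, 11 passed in HF-fed animals alone and 74 changed sign, in 13 genes. Within set 2 the slope was -0.022 for Pfn4, -0.0142 for Cnnm2, -0.0358 for Acot1, -0.0182 for Ucp3, -0.0454 for Plin5, -0.0595 for Fkbp5 and 0.0291 for Cd36. In HF-fed animals alone it was -0.0429 for Scd1, -0.0445 for Nppa, -0.074 for Nppb, 0.00697 for Myh7 and -0.0177 for Lox, and in LF-fed animals alone -0.0181 for Acot1 and -0.0428 for Plin5. Without hearts above the limit for another tissue it was -0.00383 for Acot1, -0.0212 for Nppb and -0.0135 for Fkbp5. With the 3-week weight as a covariate it was -0.00966 for Acot1, -0.00269 for Ucp3, -0.0297 for Plin5 and -0.0116 for Fkbp5. Plin5 had -0.00402 within cage and diet, -0.0032 per SD of weight, -0.011 on log2 weight, -0.00133 on ranks and -0.00356 without the 2 animals of farthest weight, where Fkbp5 had -6.6e-06. Nppb had -0.0485 within set 1, -0.00294 within cage and diet, -0.00942 with the atrial score, -0.0157 with glucose and -0.00919 on ranks. With an animal or cage left out the slopes were -0.00124 to 0.0363 for Pdk4, -0.00644 to 0.0222 for Acot1, -0.00444 to 0.0328 for Ucp3, -0.0167 to 0.0176 for Plin5, -0.0393 to 0.0404 for Nppb, -0.0298 to 0.00551 for Myh7 and -0.0123 to 0.0235 for Fkbp5. Of 414 alternative values of the LF_LF slope of 22 genes, 236 kept their side of the threshold, 167 no longer passed, 7 newly passed and 4 changed sign: Adipoq to -0.034 with both scores, Nppa to -0.0345 with the atrial score, and Myl7 to -0.115 with the atrial score and -0.101 with both. These genes are members of the scores, so that a slope near 0 there follows from the construction.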
